A study of Mus musculus with 3 samples.

Results

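Transcripts of 10 genes for cytokines and macrophage growth factors (*Il1b*, *Tnf*, *Il6*, *Il10*, *Ifng*, *Il17a*, *Il18*, *Il33*, *Csf1* and *Il34*) were counted in single cells of the mouse kidney. The genes were taken by name and not by a threshold on their values, and all 10 of them are among the 27998 genes of the deposited matrices. Kidneys of 2 *Aoah-/-* mice and 1 wild-type (WT) mouse were examined on day 14 after folic acid (FA) treatment, and each mouse gave 1 library. FA injures the renal tubule, and *Aoah* encodes acyloxyacyl hydrolase, an enzyme that removes fatty acyl chains from bacterial lipopolysaccharide. The sample labels give an age of 6 to 8 weeks for the mice of both genotypes, and all 3 mice had received FA, so no uninjured kidney was compared here. The *Aoah-/-* mice lack the gene in every cell of the body, so a difference between genotypes cannot be assigned to a cell type by the design. By the methods of the study the mutation had been bred onto C57/BL6J, and WT controls came from the same heterozygous crosses. Mice are numbered here by the replicate numbers of their labels (2 and 3 for *Aoah-/-*, 3 for WT). Where a sentence lists 3 values without naming libraries, they stand for *Aoah-/-* mouse 2 first, then *Aoah-/-* mouse 3, then WT.

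The products of these genes are signals between immune cells and tissue. IL-1β, IL-18 and IL-33 are members of the IL-1 family. IL-1β and IL-18 are made as precursors that caspase-1 cleaves in the inflammasome, whereas IL-33 is kept in the nucleus and released by damaged cells. TNF and IL-6 are released by activated macrophages and by many stromal cells, and IL-10 restrains both of them. IFN-γ is the main macrophage-activating product of T and natural killer cells, and IL-17A is made by specialised T lymphocytes that call in neutrophils. CSF1 and IL-34 are the 2 ligands of the CSF1 receptor, on which kidney macrophages depend for survival and proliferation, and IL-34 of tubular epithelium is known to promote macrophage growth after kidney injury. Most of these genes are transcribed in bursts after stimulation, many of them through NF-κB, and their mRNAs are short-lived.

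The genes were placed by Ensembl identifier on GRCm38 with GENCODE M21, and all 10 are protein coding. *Il1b* lies at chr2:129364570-129371139, *Il18* at chr9:50554827-50581840 and *Il33* at chr19:29925114-29960718. *Tnf* lies at chr17:35199381-35202007, *Il6* at chr5:30013114-30019981 and *Il10* at chr1:131019845-131024974. *Ifng* lies at chr10:118441046-118445892 and *Il17a* at chr1:20730905-20734496. *Csf1* lies at chr3:107741048-107760469 and *Il34* at chr8:110741829-110805924. *Il1b*, *Tnf*, *Csf1* and *Il34* are on the minus strand and the other genes on the plus strand.

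Promoter windows of 300 bases (250 before and 50 after the RefSeq start, GRCm38.p6) were found for 8 of the 10 genes, with 9 windows because *Il33* has a pair of starts. Windows of *Il10* and *Il34* were not used here. A κB motif, the DNA element bound by NF-κB, was searched on both strands by its degenerate consensus of 10 letters, and TATAAA, the core of the TATA box, was searched in the same way. The κB motif was found in 2 of the 8 genes, *Il6* and *Csf1*, and in 2779 of all 32851 windows (8.46%). TATAAA or its reverse complement was found in 6 of the 8 genes (*Il1b*, *Tnf*, *Ifng*, *Il17a*, *Il18* and *Il33*), and in 4473 of all windows (13.6%). The windows of *Il6* and *Csf1* are printed because they hold the κB motif, and those of *Il1b* and *Tnf* because these genes had the most similar levels across cell classes of all pairs of the 10 genes. Sequences run 5′ to 3′ on the strand of the gene, and capitals mark the matched motif.
Il6 (chr5:30012864-30013163, plus strand; κB motif 44 bases before the start): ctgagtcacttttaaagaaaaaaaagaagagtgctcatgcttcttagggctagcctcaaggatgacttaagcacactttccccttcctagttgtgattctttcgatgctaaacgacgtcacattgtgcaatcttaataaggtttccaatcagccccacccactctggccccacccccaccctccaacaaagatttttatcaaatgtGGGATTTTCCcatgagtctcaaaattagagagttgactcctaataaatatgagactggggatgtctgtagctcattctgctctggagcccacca
Csf1 (chr3:107760420-107760719, minus strand; κB motif on the opposite strand, 154 bases before the start): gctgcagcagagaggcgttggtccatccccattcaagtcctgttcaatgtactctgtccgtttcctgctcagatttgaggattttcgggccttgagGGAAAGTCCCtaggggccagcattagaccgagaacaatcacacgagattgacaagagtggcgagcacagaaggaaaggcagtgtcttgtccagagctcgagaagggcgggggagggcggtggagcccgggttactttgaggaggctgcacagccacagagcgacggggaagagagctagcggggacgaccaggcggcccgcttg
Il1b (chr2:129371090-129371389, minus strand; TATAAA 31 bases before the start): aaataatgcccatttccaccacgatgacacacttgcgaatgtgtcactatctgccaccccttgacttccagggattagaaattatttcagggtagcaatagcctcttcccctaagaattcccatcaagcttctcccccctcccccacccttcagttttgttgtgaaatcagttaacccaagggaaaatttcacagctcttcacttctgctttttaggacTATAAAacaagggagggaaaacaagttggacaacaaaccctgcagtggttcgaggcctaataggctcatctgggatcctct
Tnf (chr17:35201958-35202257, minus strand; TATAAA 29 bases before the start): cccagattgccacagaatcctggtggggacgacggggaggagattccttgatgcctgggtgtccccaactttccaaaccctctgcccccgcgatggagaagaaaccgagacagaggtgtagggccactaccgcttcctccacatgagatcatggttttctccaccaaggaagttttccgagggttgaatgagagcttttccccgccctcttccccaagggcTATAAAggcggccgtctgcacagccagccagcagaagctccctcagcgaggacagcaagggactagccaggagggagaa
A match is a description of the letters in these windows, and a window without a match says nothing on binding elsewhere.

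The libraries held 167222984, 161015021 and 158551992 unique molecular identifiers (UMIs, 1 per captured RNA molecule) in 25516, 24693 and 23072 barcodes. After removal of barcodes with under 200 genes or over 50% mitochondrial UMIs there were 21368, 19692 and 18202 cells, with a median of 3357, 3678 and 3859 UMIs. The lowest UMI total of a deposited barcode was 500, 1672 and 500, so cells had not been called alike in the 3 libraries. Any 2 libraries shared 109 to 117 barcodes among kept cells. *Aoah* itself was at 6.75, 6.19 and 18.2 CPM (UMIs scaled to a total of 1000000) over all kept cells and at 4.28, 4.38 and 19.8 CPM in macrophage-like cells. In proximal tubular epithelial-like cells, which held most *Aoah* UMIs of each library, it was at 13.2, 12.3 and 26.3 CPM. In each of these *Aoah* was lower in both *Aoah-/-* libraries but not at 0. Cells were grouped into 36 clusters, of which 26 (91.8% of cells) were named after their leading markers, and each name below stands for "-like" cells. Unnamed cells were 3.45%, 18.6% and 2.54% of kept cells, so they were most frequent in *Aoah-/-* mouse 3. Cluster 1, with markers of both ascending limb and proximal tubule, stayed unnamed and held 261, 2962 and 123 cells. A cluster of macrophages with peritoneal markers held 1389, 13 and 77 cells, so that nearly all of them came from *Aoah-/-* mouse 2. One cluster of fibroblasts led by *Mgp* and *Ccl2* (cluster 5) held 198, 354 and 119 cells, and another led by *Dcn* and *Pi16* (cluster 35) held 10, 18 and 493. Peritoneal-like cells and fibroblasts were therefore described with these numbers beside them. The log2 ratios of the 10 genes over all kept cells are given with and without the peritoneal-like cells, for some genes only at the end.

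The WT group has a single library and so no spread of its own, and therefore no test between genotypes was made and no p-value is given. Each level in CPM is the number of UMIs of a gene per 1000000 UMIs of the same cells, with the exact Poisson 95% interval in parentheses, which covers counting error only. A genotype difference is the log2 ratio of the mean level in *Aoah-/-* mice over the WT level, ± the SD between the 2 *Aoah-/-* libraries. A gene was said to be past the fold when both *Aoah-/-* libraries lay at least 1.5-fold from WT on the same side after 1 CPM was added, among genes with at least 20 UMIs in those cells. As a reference for free RNA in the droplets, ascending limb, distal convoluted tubule and intercalated cells were pooled and are called background tubule cells. The 14 proximal tubular epithelial markers summed to 2614, 3245 and 5247 CPM in this pool. In T lymphocytes they summed to 3032, 2792 and 3868 CPM, but in granulocytes to 10744, 13164 and 9746 CPM and in endothelial cells to 11474, 13942 and 10296 CPM. Free RNA can thus exceed the reference in some classes, and a level above it was not taken as free of such RNA.

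The 10 genes differed widely in level and in source. *Il1b* was by far the most abundant, at 464 CPM in *Aoah-/-* mouse 2, 574 CPM in *Aoah-/-* mouse 3 and 334 CPM in the WT mouse, and together the 10 genes spanned levels from below 1 CPM to this value. The other genes lay between 0.341 CPM (*Il17a* in *Aoah-/-* mouse 2) and 80.5 CPM (*Il6* in the same library). In the heat map of levels by class, *Il1b* and *Tnf* stood in myeloid cells, *Ifng* and *Il17a* in T lymphocytes, *Il33* in endothelial cells and fibroblasts, and *Il34* in fibroblasts and tubule. Of 18 classes with at least 50 cells in every library, the number in which a gene exceeded the background tubule level by over 2-fold in all 3 libraries was 7 for *Tnf* and *Il18*, 5 for *Il1b*, *Il6*, *Il10*, *Ifng*, *Il33* and *Csf1*, 2 for *Il34* and 1 for *Il17a*. For *Il34* the background includes ascending limb cells, which held the gene themselves (mean 16.8 CPM). For *Il33* the WT background was 0 CPM, so any WT level above 0 exceeded it. Proximal tubular epithelial cells, at 0.455 to 1.02 CPM, are among its 5 classes. Erythroid cells are among the 5 classes of *Il1b* and of *Ifng*.

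**Figure D1:**
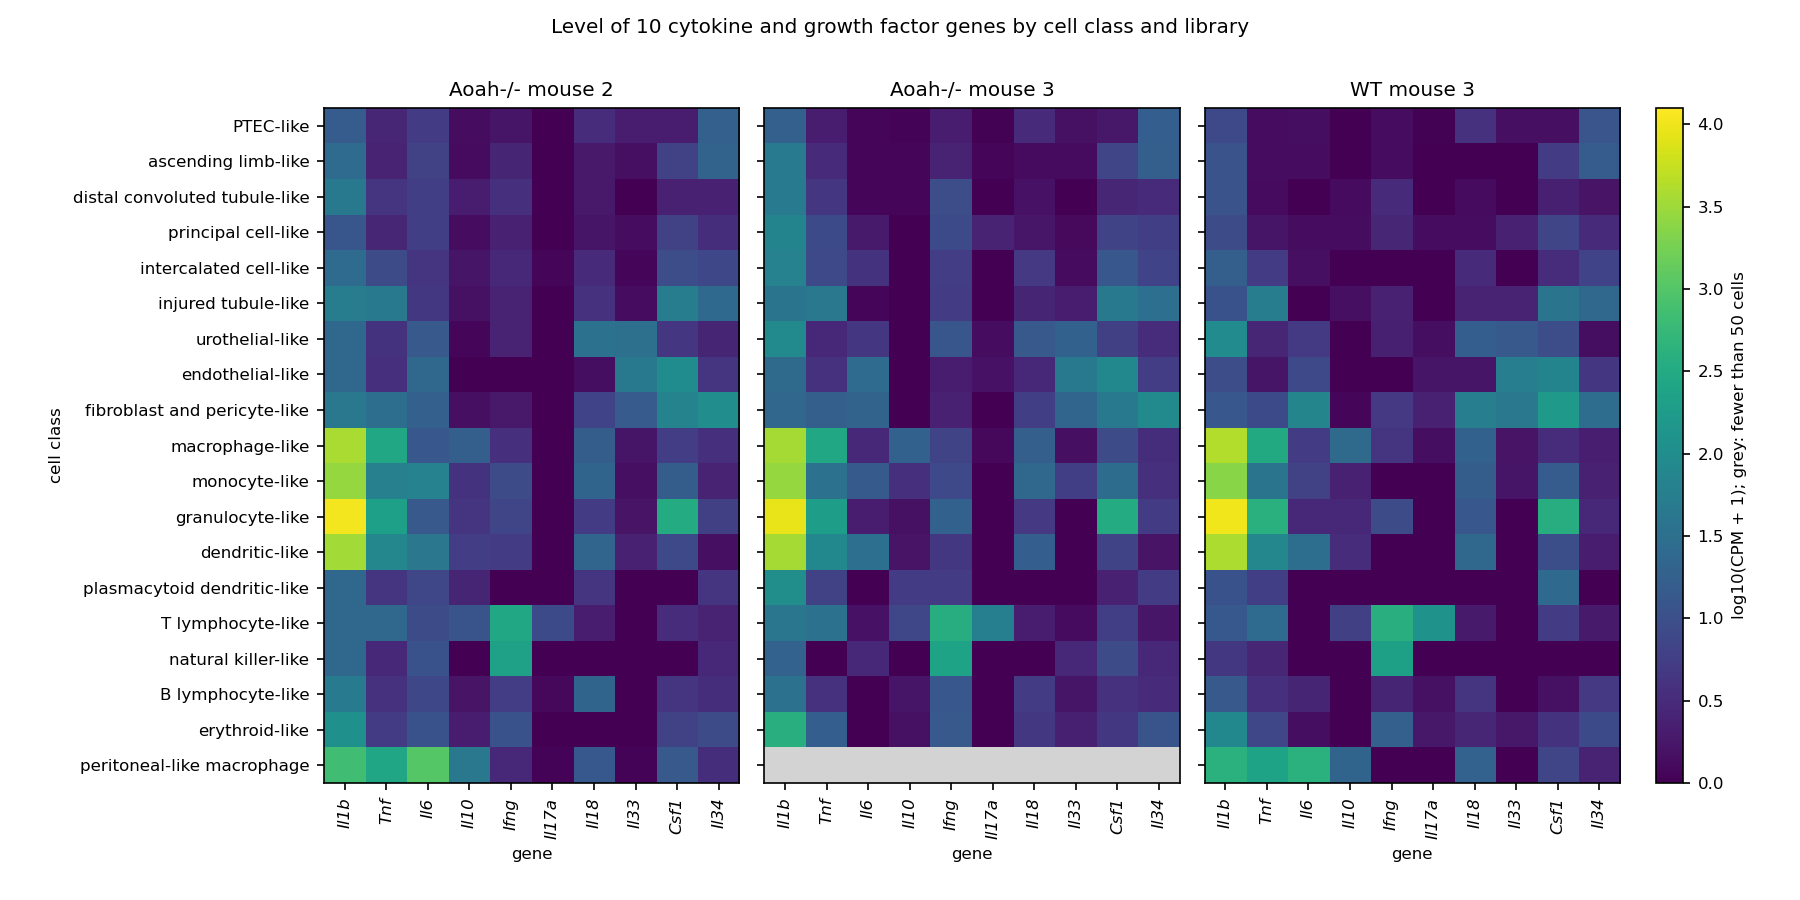
Level of the 10 genes (columns) in each cell class (rows) of the 3 libraries, as log10 of (CPM + 1) on a colour scale, with grey where a class has fewer than 50 cells. Granulocytes, macrophages, dendritic cells and monocytes hold the high *Il1b* levels in every library, and *Il17a* is highest in T lymphocytes.

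Among all kept cells, 1 of the 10 genes (*Tnf*) was past the fold in the higher direction and 0 were in the lower direction, whereas 3.48% of 17451 genes were past the fold higher and 2.55% lower. Without the peritoneal-like cells, 0 of 10 were past the fold in either direction, against 2.82% of genes higher and 2.46% lower. In proximal tubular epithelial cells (PTECs), 2 of 9 genes tested (*Il1b* and *Tnf*) were higher and 0 lower, against 2.72% and 0.825% of all genes tested there. In macrophages, 2 of 8 (*Csf1* and *Il34*) were higher and 0 lower, against 5.55% and 1.2%. In granulocytes, 0 of 6 were higher and 2 (*Tnf* and *Il18*) lower, against 15.8% and 4.01%. In T lymphocytes, 2 of 7 (*Il1b* and *Il6*) were higher and 1 (*Il17a*) lower, against 3.56% and 1.79%, where the *Il6* count rests on a WT count of 0 taken as 0 CPM. In endothelial cells, 2 of 5 (*Il1b* and *Il6*) were higher and 0 lower, against 6.29% and 1.58%. In injured tubule cells, 1 of 7 (*Il1b*) was higher and 0 lower, against 4.62% and 1.73%. In intercalated cells, 5 of 7 (*Il1b*, *Tnf*, *Il6*, *Ifng* and *Csf1*) were higher and 0 lower, against 3.33% and 2.21%. These cells are part of the background tubule pool, and their *Ifng* was at 0 CPM in WT. In fibroblasts, 3 of 8 (*Il1b*, *Tnf* and *Il34*) were higher and 5 (*Il6*, *Ifng*, *Il18*, *Il33* and *Csf1*) lower, against 14.8% and 11.5%. The fibroblast clusters were split unevenly between libraries. The counts are of single genes, and apart from intercalated cells and fibroblasts the level behind each is given with its gene.

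*Il1b*, the gene of IL-1β, was strongest in granulocytes, followed by macrophages, dendritic cells and monocytes, and within these cells it did not differ past the fold between genotypes. In granulocytes *Il1b* was at 10553 CPM (10395 to 10712) in *Aoah-/-* mouse 2, 9308 CPM (9168 to 9449) in *Aoah-/-* mouse 3 and 10277 CPM (10000.2 to 10559) in the WT mouse. The WT value lay between the values of both *Aoah-/-* libraries, and the log2 ratio was -0.05 ± 0.13. In macrophages *Il1b* was at 3815 CPM (3764 to 3866) in *Aoah-/-* mouse 2, 3515 CPM (3476 to 3555) in *Aoah-/-* mouse 3 and 4229 CPM (4171 to 4288) in the WT mouse, with a log2 ratio of -0.21 ± 0.08. Here the WT library was the highest of the 3, and the direction turned under 1 alternative (the mean of cells, given with the limits at the end). In dendritic cells the levels were 3409, 3586 and 3942 CPM and in monocytes 2786, 2833 and 2353 CPM. Macrophage and dendritic levels overlapped in their range over libraries, while granulocytes lay above both and monocytes below both. Most macrophage *Il1b* came from cluster 29, the macrophages rich in *Ccl3* and *Ccl4*, at 4486, 3659 and 5425 CPM. The other macrophage cluster (27), with a median of 747 UMIs per cell, was at 121, 173 and 87.6 CPM and held 875, 135 and 1129 cells, against 810, 1316 and 633 in cluster 29. Within cluster 29 alone the log2 ratio was -0.41 ± 0.21, with both *Aoah-/-* libraries again below WT. After macrophages and monocytes were clustered again, the *Ccl4*- and *Hspa1a*-led subcluster held the highest *Il1b* (5647, 4880.5 and 7367 CPM), and the *Gpnmb*-high subcluster held less (2596, 1721 and 1756 CPM). *Gpnmb* marks lipid-handling macrophages of injured tissue.

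*Il1b* over all kept cells was higher in both *Aoah-/-* libraries than in WT, with a log2 ratio of 0.64 ± 0.22, although it was not past the fold in each of them. The composition of the libraries also differed. Granulocytes were 3.83%, 3.27% and 1.15% of kept cells, and PTECs, which hold little *Il1b*, were 38.8%, 24.3% and 52.3%. Macrophages (7.89%, 7.37% and 9.68%) and dendritic cells (1.80%, 1.82% and 2.08%) had their highest shares in the WT mouse. Among macrophages, the low-UMI cluster 27 had its most cells in the WT mouse and cluster 29 its fewest. Granulocytes gave 27.9%, 22.6% and 12.6% of all *Il1b* UMIs, and macrophages gave 34.9%, 40.7% and 49.2%. When each library was given the mean class shares, its *Il1b* level became 429, 510.0 and 422 CPM, so the WT value lay just below that of *Aoah-/-* mouse 2. Here and below, mean class shares are those of the 18 compared classes, and peritoneal-like and unnamed cells are left out. With cells thinned to 1000 UMIs each, 88.5% (86.0 to 90.7), 85.4% (82.4 to 88.0) and 93.5% (89.1 to 96.5) of granulocytes held an *Il1b* UMI, and 64.3% (61.3 to 67.3), 67.7% (65.2 to 70.1) and 59.0% (55.6 to 62.2) of macrophages. In background tubule cells the thinned share was 2.34%, 6.17% and 1.28%. Without thinning, the shares were 89.5%, 91.6% and 93.3% in granulocytes at a median of 1623, 2203 and 1926 UMIs, 47.6%, 79.7% and 36.0% in macrophages at 1591, 4487 and 998 UMIs, and 10.1%, 21.04% and 5.97% in background tubule cells at 8013, 7759.5 and 7324 UMIs. Both myeloid classes thus exceeded the background share in every library. Thinning left out 77, 0 and 11 granulocytes, 678, 0 and 885 macrophages and 254, 0 and 127 background tubule cells with fewer UMIs.

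**Figure D2:**
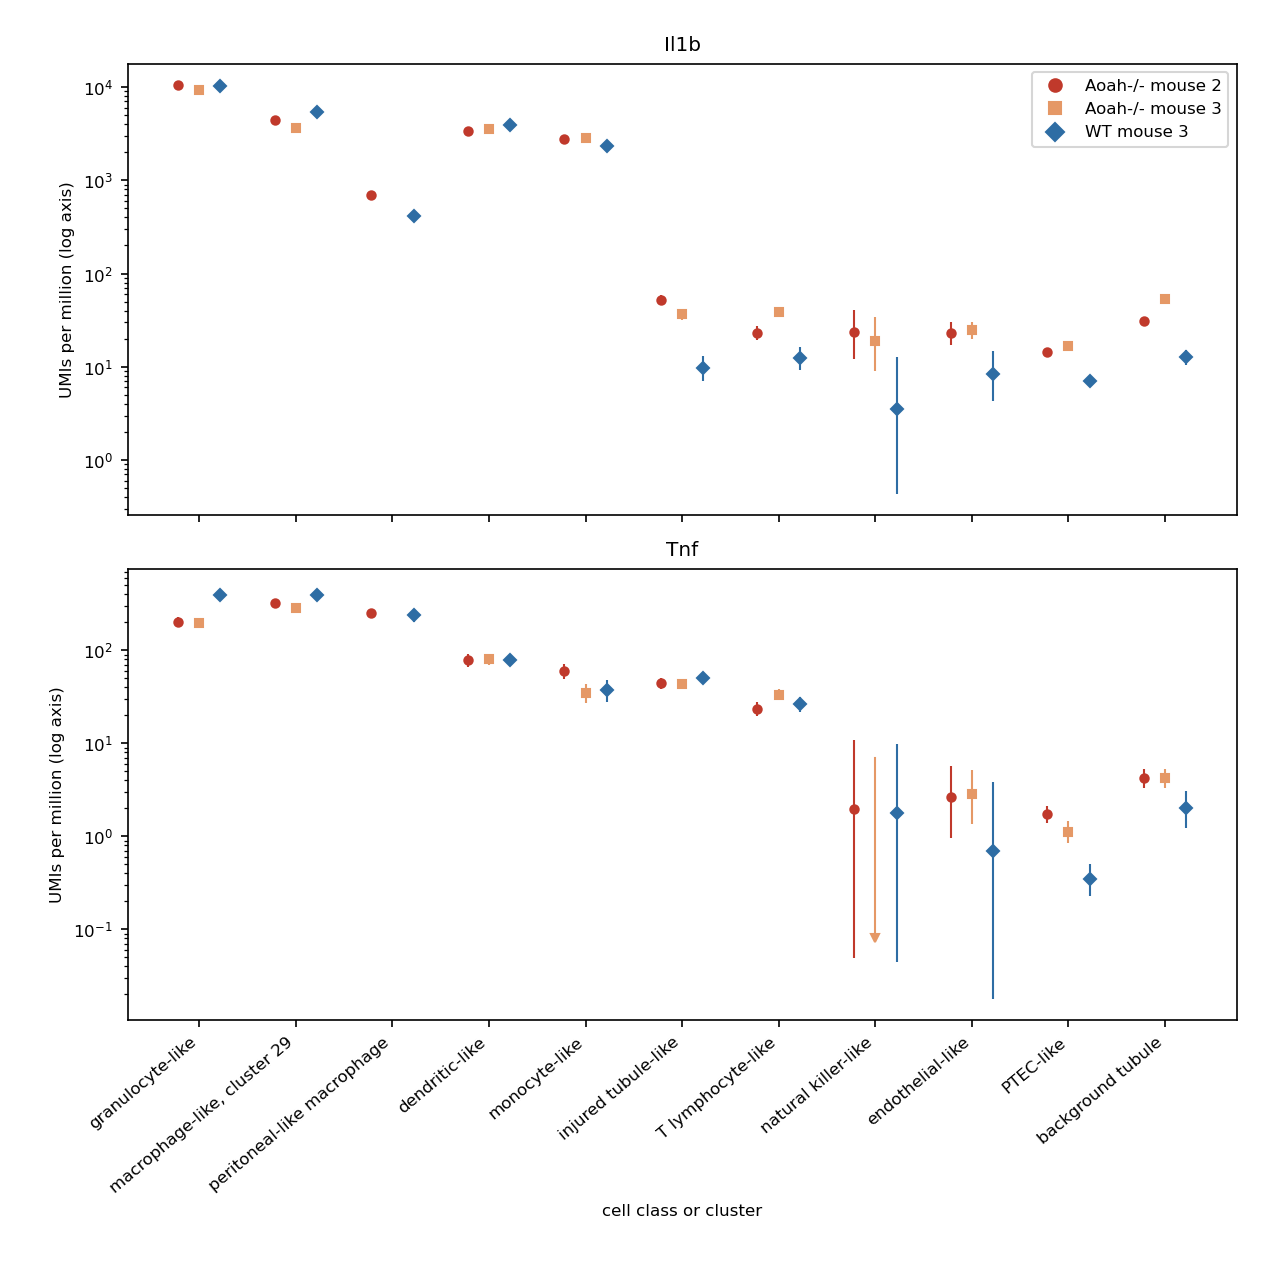
Levels of *Il1b* and *Tnf* in CPM on a log axis in the cell classes described (macrophages as cluster 29), 1 point per library with its exact Poisson 95% interval, a downward arrow from the upper bound where a library had 0 UMIs, and no point where it had fewer than 50 cells. The myeloid classes stand far above the background tubule cells in all 3 libraries, and in granulocytes the WT point lies above both *Aoah-/-* points for *Tnf* but not for *Il1b*.

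The past-fold differences of *Il1b* lay in cells with low levels. In PTECs it was at 14.5 CPM (13.5 to 15.5) in *Aoah-/-* mouse 2, 16.9 CPM (15.7 to 18.0) in *Aoah-/-* mouse 3 and 7.10 CPM (6.51 to 7.73) in the WT mouse, with a log2 ratio of 1.14 ± 0.16. In injured tubule cells the levels were 52.0, 36.4 and 9.65 CPM, in endothelial cells 22.8, 24.7 and 8.37 CPM, in T lymphocytes 23.0, 38.96 and 12.4 CPM and in natural killer cells 23.5, 18.7 and 3.54 CPM. Background tubule cells were at 30.7, 53.1 and 12.7 CPM, a log2 ratio of 1.73 ± 0.56, and of the classes just named only injured tubule cells of *Aoah-/-* mouse 2 exceeded the background level of their library. B lymphocytes were at 45.8, 32.5 and 13.2 CPM, fibroblasts at 42.2, 21.4 and 12.05 CPM and plasmacytoid dendritic cells at 23.1, 106 and 9.62 CPM, each above the background level in at least 1 library. Granulocyte markers were also higher in the *Aoah-/-* libraries in these cells. The 8 of them summed to 21.4, 22.5 and 5.10 CPM in PTECs, 43.3, 87.8 and 14.8 CPM in background tubule cells and 162, 113 and 4.04 CPM in injured tubule cells. Of the 8 markers, 7, 7 and 7 were detected in PTECs, 7, 8 and 7 in background tubule cells and 8, 8 and 6 in injured tubule cells, with *Ly6g* at 0 in PTECs of every library. The 9 macrophage markers summed to 269.8, 269 and 152 CPM in PTECs and 342, 406 and 214 CPM in background tubule cells, with all 9 detected in PTECs. Their part in the *Il1b* difference was not tested.

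*Il18* differed from *Il1b* in its source, with low levels spread over myeloid, stromal and epithelial cells. In macrophages it was at 14.997 CPM (11.96 to 18.6) in *Aoah-/-* mouse 2, 16.1 CPM (13.6 to 19.1) in *Aoah-/-* mouse 3 and 17.8 CPM (14.2 to 22.0) in the WT mouse, a log2 ratio of -0.19 ± 0.08. Dendritic cells (21.1, 15.6 and 23.0 CPM) and monocytes (19.9, 22.8 and 15.2 CPM) overlapped macrophages in their range. Urothelial cells, the lining of the renal pelvis, were at 34.1, 12.99 and 15.6 CPM, highest in *Aoah-/-* mouse 2. PTECs, which are known to release IL-18 after injury, were at 2.32, 2.12 and 2.91 CPM and background tubule cells at 1.32, 1.63 and 0.998 CPM. The highest level of a cluster was that of the *Dcn*- and *Pi16*-led fibroblasts of the WT mouse, at 75.3 CPM (67.4 to 84.0), which held 40.2% of the WT mouse's *Il18* UMIs from 493 cells. The *Aoah-/-* libraries had 10 and 18 such cells, so this level has no counterpart in them. In granulocytes *Il18* was past the fold lower (4.33, 3.85 and 11.8 CPM), on 7, 7 and 6 UMIs. In all kept cells together it was at 6.53, 3.998 and 6.51 CPM, a log2 ratio of -0.31 ± 0.50, with the WT mouse and *Aoah-/-* mouse 2 at about the same level.

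*Il33* was found in endothelial cells, fibroblasts and urothelial cells. In endothelial cells it was at 43.9 CPM (35.7 to 53.4) in *Aoah-/-* mouse 2, 44.3 CPM (37.6 to 51.8) in *Aoah-/-* mouse 3 and 55.1 CPM (43.6 to 68.6) in the WT mouse. The intervals of all 3 libraries overlapped, and the log2 ratio was -0.32 ± 0.01 (-0.36 to 0.35 over the alternatives, so the direction was not stable). *Mgp*- and *Ccl2*-led fibroblasts were at 9.52, 19.9 and 12.1 CPM, and the *Dcn*- and *Pi16*-led fibroblasts of the WT mouse at 53.1 CPM. Urothelial cells were at 32.0, 18.0 and 12.99 CPM, again highest in *Aoah-/-* mouse 2. In macrophages, T lymphocytes and background tubule cells *Il33* stayed at or below 0.714 CPM. The 3 libraries as a whole were at 3.84, 2.87 and 3.46 CPM, a log2 ratio of -0.04 ± 0.30.

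*Tnf* was shared by macrophages and granulocytes, and it was higher in *Aoah-/-* mice over all kept cells but not within these classes. In macrophages it was at 275 CPM (262 to 289) in *Aoah-/-* mouse 2, 274 CPM (263 to 285) in *Aoah-/-* mouse 3 and 306 CPM (290.3 to 322) in the WT mouse, a log2 ratio of -0.16 ± 0.00486. The *Aoah-/-* libraries were alike and the WT library was slightly above them, but the ratio turned to 0.51 as a mean of per-cell levels. In granulocytes *Tnf* was at 203 CPM (181 to 226) in *Aoah-/-* mouse 2, 194 CPM (175 to 216) in *Aoah-/-* mouse 3 and 393 CPM (340.3 to 451) in the WT mouse. Both *Aoah-/-* libraries lay at about the same level, below the WT interval, with a log2 ratio of -0.98 ± 0.04 and -1.13 to -0.62 over the alternatives. The counts behind these levels were 328, 353 and 200 UMIs in 819, 644 and 210 granulocytes. After thinning, 11.1% (8.89 to 13.5), 13.2% (10.7 to 16.1) and 24.6% (18.8 to 31.2) of granulocytes held a *Tnf* UMI, and without thinning 15.9%, 22.0% and 29.5%. The thinned share in background tubule cells was 0.431%, 0.339% and 0.0988%. Granulocyte markers summed to 46315, 45172 and 52890.4 CPM in these cells, all 8 detected in each library, and macrophage markers to 627, 594 and 430.2 CPM. Thus *Il1b* was alike in granulocytes of both genotypes whereas *Tnf* was higher in those of the WT mouse, a difference that rests on 1 WT library.

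The other sources of *Tnf* were weaker. Dendritic cells were at 78.1, 80.1 and 79.2 CPM, within 3 CPM of each other in all 3 libraries. Injured tubule cells were at 44.2, 43.4 and 50.7 CPM and monocytes at 59.7, 34.6 and 37.2 CPM, with overlapping ranges. T lymphocytes were at 23.5, 33.3 and 26.3 CPM and *Mgp*- and *Ccl2*-led fibroblasts at 29.997, 16.6 and 22.3 CPM. The injured tubule level exceeded that of the background tubule cells (4.25, 4.25 and 1.997 CPM) by over 2-fold in each library. In PTECs *Tnf* was past the fold higher at 1.73, 1.12 and 0.348 CPM, which is below the background tubule level of the same library in all 3 libraries. Within macrophages, cluster 29 was at 324, 285 and 394 CPM (log2 ratio -0.37 ± 0.13), the *Ccl4*- and *Hspa1a*-led subcluster at 402, 354 and 511 CPM and the *Gpnmb*-high subcluster at 214, 202 and 232 CPM.

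*Tnf* over all kept cells was at 39.2 CPM (38.1 to 40.3) in *Aoah-/-* mouse 2, 31.6 CPM (30.6 to 32.6) in *Aoah-/-* mouse 3 and 20.6 CPM (19.8 to 21.4) in the WT mouse, a log2 ratio of 0.78 ± 0.22. Both *Aoah-/-* libraries lay above WT by at least 1.5-fold. Peritoneal-like cells of *Aoah-/-* mouse 2 were at 254 CPM and those of the WT mouse at 237 CPM, and they made up 6.50%, 0.0660% and 0.423% of kept cells. Without them *Tnf* was at 23.5, 31.2 and 19.5 CPM, a log2 ratio of 0.49 ± 0.29, and no longer past the fold. At the mean class shares, which also leave out the peritoneal-like cells, the levels were 24.4, 29.3 and 23.9 CPM. *Aoah-/-* mouse 2 and the WT mouse thus came to nearly the same value.

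*Il6* was dominated by peritoneal-like macrophages in *Aoah-/-* mouse 2 only. Other cells held 77.0% of the *Il6* UMIs of *Aoah-/-* mouse 3 and 71.7% of those of the WT mouse. In *Aoah-/-* mouse 2 the peritoneal-like cells were at 1060.5 CPM (1039 to 1082), with 9485 UMIs in 1099 of 1389 cells, or 89.3% of all *Il6* UMIs of that library. In the WT mouse they were at 408 CPM (359.9 to 460.0) with 263 UMIs in 77 cells. In *Aoah-/-* mouse 3, 13 cells held 158 UMIs, or 23.0% of its *Il6*. Over all kept cells *Il6* was at 80.5 CPM (79.0 to 82.1) in *Aoah-/-* mouse 2, 5.27 CPM (4.89 to 5.68) in *Aoah-/-* mouse 3 and 7.45 CPM (6.98 to 7.95) in the WT mouse. *Aoah-/-* mouse 2 was high, whereas *Aoah-/-* mouse 3 was below WT. The log2 ratio of 2.52 ± 2.78 became -0.50 with *Aoah-/-* mouse 3 alone. Without peritoneal-like cells *Il6* was at 9.25, 4.06 and 5.37 CPM, and *Aoah-/-* mouse 2 was again the highest and *Aoah-/-* mouse 3 the lowest.

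**Figure D3:**
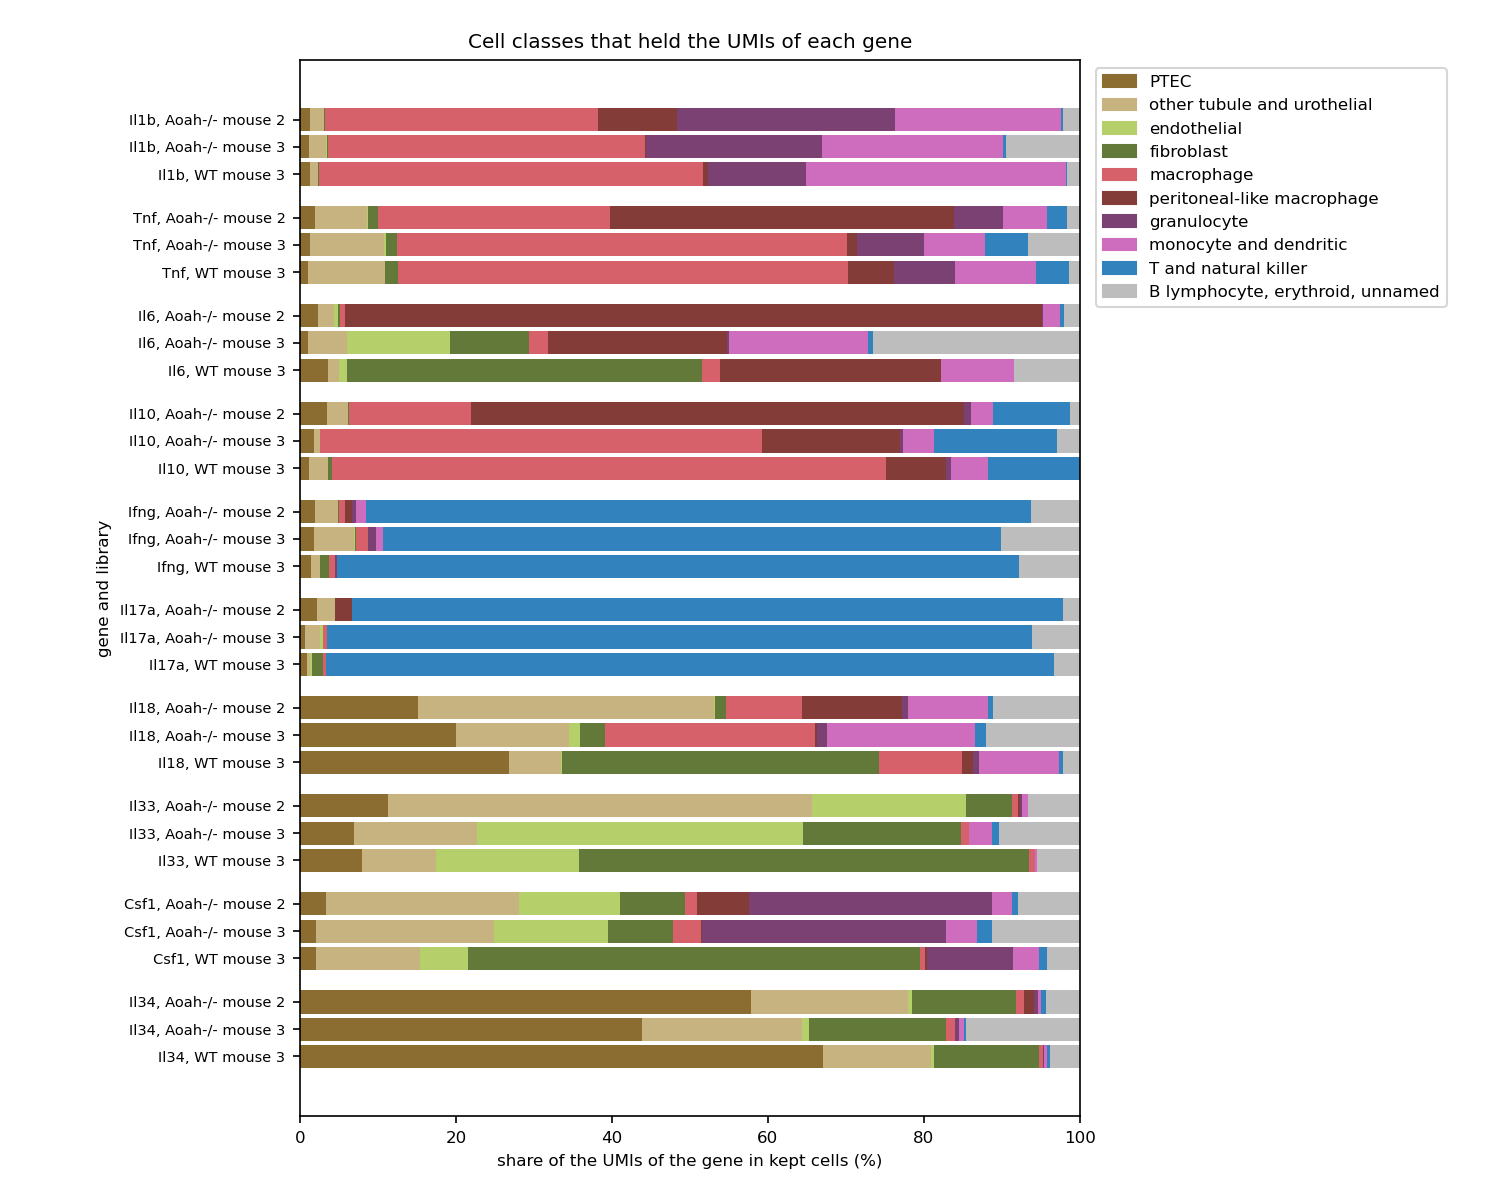
Share of each gene's UMIs (percent of the kept cells of a library) that came from each group of cell classes, as stacked bars, 1 bar per library and gene. Peritoneal-like macrophages hold 89.3% of the *Il6* UMIs of *Aoah-/-* mouse 2, and PTECs hold 43.8% to 67.0% of the *Il34* UMIs.

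Outside the peritoneal-like cells, *Il6* was found in endothelial cells, fibroblasts, dendritic cells and monocytes. In endothelial cells it was at 23.7 CPM (17.8 to 30.9) in *Aoah-/-* mouse 2, 25.8 CPM (20.8 to 31.7) in *Aoah-/-* mouse 3 and 6.97 CPM (3.34 to 12.8) in the WT mouse, from 54, 91 and 10 UMIs. Both *Aoah-/-* libraries were alike, and their Poisson intervals for UMIs lay above the WT interval. The intervals of the thinned shares of cells, given below, overlapped between WT and both *Aoah-/-* libraries. The log2 ratio was 1.83 ± 0.09, with 1.47 to 2.72 over the alternatives. After thinning, 2.83% (1.63 to 4.56), 2.06% (1.18 to 3.33) and 0.536% (0.0650 to 1.92) of endothelial cells held an *Il6* UMI, without thinning 6.45%, 5.16% and 1.18% at medians of 2904, 3652 and 2624 UMIs. In background tubule cells the thinned share was 0.616%, 0.0566% and 0% (upper bound 0.364% for the 0) and the level 4.49, 1.17 and 0.2995 CPM. In every library the background share lay below the interval of the endothelial share. The 8 endothelial markers summed to 10340.4, 11311 and 10911 CPM in these cells, and the 9 fibroblast markers to 3.95, 11.6 and 10.5 CPM. The 14 PTEC markers summed to 11474, 13942 and 10296 CPM there, above the endothelial sum in both *Aoah-/-* libraries. In background tubule cells they summed to only 2614, 3245 and 5247 CPM, so the background share can understate the free RNA of endothelial cells. The part of free RNA in their *Il6* was not tested. The 9 macrophage markers summed to 588, 638 and 812 CPM there. Of the 7 peritoneal markers, 7, 4 and 5 were detected, with a sum of 322, 300.3 and 327 CPM. The same sum was 31.1, 7.03 and 6.20 CPM in PTECs and 419, 369.8 and 422 CPM in cluster 33, described below. The list includes *Icam2* and *Selp*, both detected in endothelial cells of every library. The part of each marker in the sum was not separated, so the sum is no measure of peritoneal RNA alone. *Prg4* and *Timd4* were at 0 in *Aoah-/-* mouse 3 and the WT mouse and detected in *Aoah-/-* mouse 2. Granulocyte markers summed to 27.7, 45.4 and 6.27 CPM, higher in the *Aoah-/-* libraries, and the part of these cells in the *Il6* difference was not tested.

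A further cluster (33) with vascular genes among its leading genes (*Tm4sf1*, *Ptprb*, *Cldn5*, *Podxl* and *Sox17*) stayed unnamed under the naming rule. In its 471, 538 and 330 cells *Il6* was at 49.9 CPM (41.7 to 59.2) in *Aoah-/-* mouse 2, 40.6 CPM (34.2 to 48.0) in *Aoah-/-* mouse 3 and 15.1 CPM (10.3 to 21.3) in the WT mouse, a log2 ratio of 1.59 ± 0.21. The order of the libraries was the same as in endothelial cells in that both *Aoah-/-* libraries lay above WT. Granulocyte markers summed to 129, 465 and 5.18 CPM in this cluster, and their part in the difference was not tested. In *Mgp*- and *Ccl2*-led fibroblasts *Il6* was at 16.7, 15.2 and 16.0 CPM, nearly the same in the 3 libraries, and in the *Dcn*- and *Pi16*-led fibroblasts of the WT mouse at 92.0 CPM. Dendritic cells were at 41.8, 30.1 and 29.4 CPM. Monocytes (64.7, 13.6 and 5.51 CPM), macrophages (12.1, 1.85 and 4.34 CPM), T lymphocytes (7.83, 0.593 and 0 CPM) and PTECs (4.31, 0.143 and 0.442 CPM) were all highest in *Aoah-/-* mouse 2, the library with the peritoneal-like cells. In T lymphocytes of the WT mouse 0 *Il6* UMIs were counted, which at a floor of 3 counts allows up to 0.732 CPM, more than the level of *Aoah-/-* mouse 3.

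**Figure D4:**
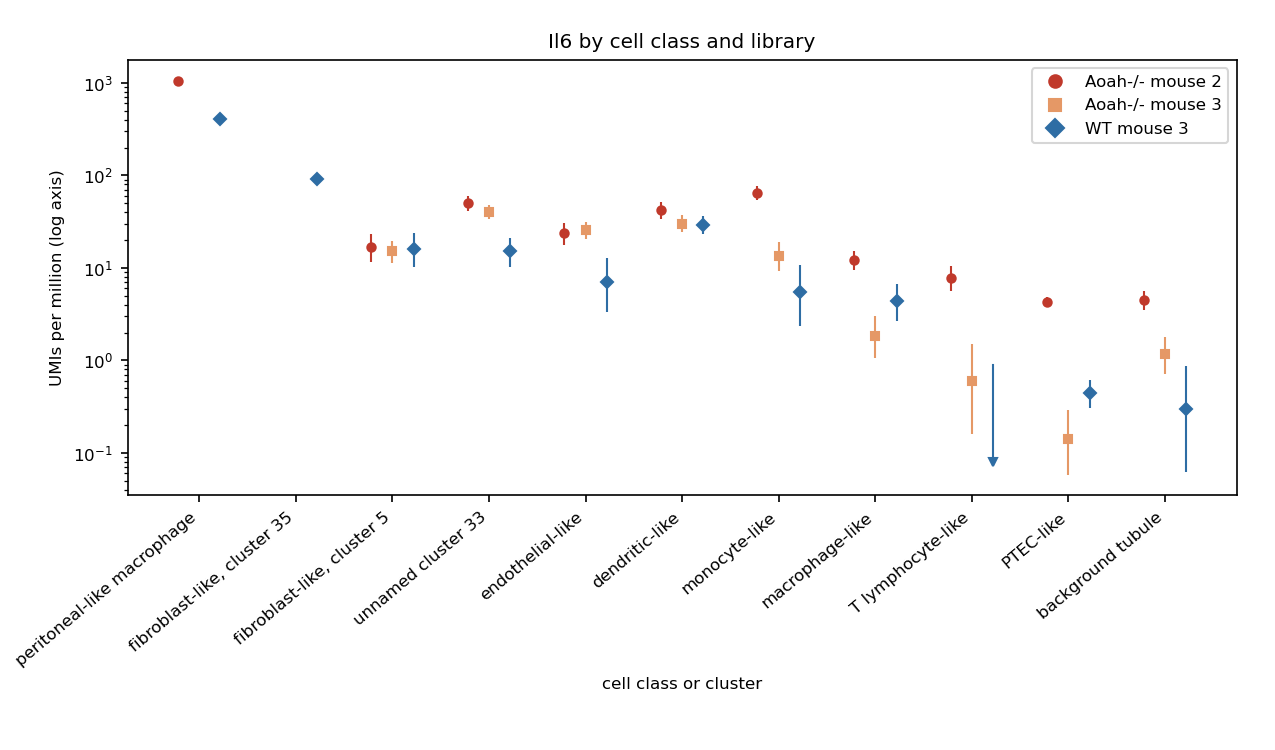
Level of *Il6* in CPM on a log axis in the cell classes and clusters described, 1 point per library with its exact Poisson 95% interval, a downward arrow from the upper bound where a library had 0 UMIs, and no point where it had fewer than 50 cells. Peritoneal-like macrophages are far above the other cells, and endothelial cells of both *Aoah-/-* mice (23.7 and 25.8 CPM) lie above those of the WT mouse (6.97 CPM).

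*Il10*, the gene of the restraining cytokine, was a macrophage gene at low level. In macrophages it was at 16.6 CPM (13.4 to 20.3) in *Aoah-/-* mouse 2, 18.1 CPM (15.4 to 21.2) in *Aoah-/-* mouse 3 and 24.8 CPM (20.6 to 29.7) in the WT mouse, from 93, 157 and 120 UMIs, with a log2 ratio of -0.52 ± 0.09. The WT library was the highest, with intervals that overlapped those of *Aoah-/-* mouse 3. The transcripts were held by few cells, 38, 50 and 39 macrophages, and the 10 richest cells held 67.7, 53.5 and 62.5 percent of the UMIs. In cluster 29, the macrophages rich in *Ccl3* and *Ccl4*, it was at 19.4, 18.8 and 32.0 CPM, a log2 ratio of -0.74 ± 0.03, with both *Aoah-/-* libraries below WT. T lymphocytes were at 10.5, 6.52 and 4.88 CPM, with the opposite order of genotypes. Peritoneal-like cells were at 42.4 CPM in *Aoah-/-* mouse 2 and 20.2 CPM in the WT mouse, and gave 63.3% of the *Il10* UMIs of *Aoah-/-* mouse 2. When all kept cells were summed, *Il10* was at 4.54, 2.13 and 1.36 CPM, a log2 ratio of 1.30 ± 0.77, and without peritoneal-like cells at 1.79, 1.75 and 1.26 CPM, a log2 ratio of 0.49 ± 0.02. Thus *Il10* over all kept cells was higher in *Aoah-/-* mice while *Il10* in macrophages was lower, although the macrophage ratio turned to 0.10 as a mean of per-cell levels.

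*Ifng* was above 200 CPM in T lymphocytes and natural killer cells and below 20 CPM in every other class compared. In T lymphocytes it was at 276 CPM (262 to 289.9) in *Aoah-/-* mouse 2, 361 CPM (346 to 375) in *Aoah-/-* mouse 3 and 379 CPM (360.2 to 398) in the WT mouse, a log2 ratio of -0.25 ± 0.27. *Aoah-/-* mouse 2 was below the other 2 libraries, whose intervals overlapped. Natural killer cells were at 218, 234 and 212 CPM, close together in the 3 libraries and below T lymphocytes of each library. T lymphocytes gave 79.6%, 75.3% and 81.2% of *Ifng* UMIs. They consisted of *Ccl5*- and *Cd8a*-rich cells (cluster 15), at 360.5, 449 and 488 CPM, and of *Il7r*- and *Icos*-rich cells (cluster 16), at 152, 246 and 310.1 CPM. In both clusters *Aoah-/-* mouse 2 was lowest and the WT mouse highest. After thinning, 17.2% (15.6 to 19.0), 21.5% (19.7 to 23.4) and 21.5% (19.2 to 24.0) of T lymphocytes held an *Ifng* UMI, against 0.185%, 0.509% and 0.0988% of background tubule cells. Without thinning, the shares were 27.2%, 39.6% and 35.2% at medians of 2502, 3032 and 2930.5 UMIs. Of the T lymphocytes with an *Ifng* UMI (552, 773 and 441 cells), 90.4, 90.7 and 80.05 percent also held *Ccl5*, a chemokine of cytotoxic cells, against 71.1, 70.0 and 52.5 percent of those without. For *Tbx21*, the transcription factor that drives *Ifng*, the shares were 22.6, 27.6 and 23.6 percent against 12.5, 14.9 and 12.5 percent. Over all kept cells *Ifng* was at 14.8, 24.8 and 15.3 CPM, a log2 ratio of 0.37 ± 0.53 that turned to -0.27 at the mean class shares, and T lymphocytes were 9.49%, 9.92% and 6.89% of kept cells.

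*Il17a* was found in very few T lymphocytes, and the *Aoah-/-* mice differed widely from each other. In T lymphocytes it was at 7.30 CPM (5.24 to 9.90) in *Aoah-/-* mouse 2, 58.2 CPM (52.6 to 64.3) in *Aoah-/-* mouse 3 and 122 CPM (111 to 133) in the WT mouse. These levels came from 41, 393 and 500 UMIs in only 9, 27 and 42 cells of 2027, 1954 and 1254. Both *Aoah-/-* libraries were below WT, but the log2 ratio of -1.90 ± 2.12 was -4.06 for *Aoah-/-* mouse 2 and -1.07 for *Aoah-/-* mouse 3 against the same WT library, so the SD exceeded the difference. The *Il7r*- and *Icos*-rich cluster was at 18.0, 133 and 177 CPM and the *Ccl5*- and *Cd8a*-rich cluster at 0, 0.524 and 34.1 CPM. *Cd163l1*, a scavenger receptor gene of IL-17-producing γδ T cells, was detected in 66.7, 66.7 and 71.4 percent of the *Il17a*-positive cells against 0.545, 0.415 and 0.825 percent of other T lymphocytes. Positive cells had medians of 2962, 3697 and 3241 UMIs and other T lymphocytes 2500.0, 3027 and 2910.5. In background tubule cells *Il17a* was at 0.0598, 0.0583 and 0 CPM, and the WT value of 0 allows up to 0.2995 CPM at the floor of 3 counts.

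*Csf1*, the first ligand of the CSF1 receptor, had its highest level in granulocytes and not in the stromal cells that are its usual source. In granulocytes it was at 335 CPM (307 to 364) in *Aoah-/-* mouse 2, 338 CPM (312 to 366) in *Aoah-/-* mouse 3 and 361 CPM (311 to 418) in the WT mouse, with overlapping intervals and a log2 ratio of -0.10 ± 0.01. After thinning, 27.1% (23.9 to 30.4), 21.7% (18.6 to 25.1) and 27.1% (21.1 to 33.9) of granulocytes held a *Csf1* UMI, against 0.493%, 0.452% and 0% of background tubule cells (upper bound 0.364% for the 0). Without thinning, the shares were 33.5%, 35.4% and 41.0% at medians of 1623, 2203 and 1926 UMIs, and 3.04%, 2.83% and 1.76% in background tubule cells at 8013, 7759.5 and 7324 UMIs. By mean over libraries, fibroblasts as a class came next (92.0 CPM), then endothelial cells (83.7 CPM), with overlapping ranges. Fibroblasts held the largest mean share of *Csf1* UMIs, 24.9%, among classes at or above the all-cell level in every library. Both rankings of fibroblasts rest on the WT mouse, since they held 146, 162 and 966 *Csf1* UMIs. The mean of the *Aoah-/-* libraries was 56.1 CPM in fibroblasts and 90.4 CPM in endothelial cells, against 164 and 70.4 CPM in WT. Endothelial cells were at 98.8 (86.3 to 113), 82.0 (72.9 to 92.1) and 70.4 CPM (57.4 to 85.6). Their log2 ratio was 0.36 ± 0.19. Injured tubule cells were at 52.5 (46.7 to 58.9), 44.8 (39.8 to 50.2) and 36.1 CPM (30.8 to 42.2), with a log2 ratio of 0.43 ± 0.16. In endothelial and injured tubule cells the *Aoah-/-* libraries lay above WT, by less than 1.5-fold in each library. *Mgp*- and *Ccl2*-led fibroblasts were at 62.9, 44.9 and 67.0 CPM. The *Dcn*- and *Pi16*-led fibroblasts of the WT mouse were at 199 CPM (186 to 213) and gave 51.7% of the WT mouse's *Csf1*. In macrophages *Csf1* was past the fold higher, at 4.64, 8.07 and 2.27 CPM from 26, 70 and 11 UMIs, which is near the level of background tubule cells (5.44, 6.88 and 2.50 CPM). Over all kept cells *Csf1* was at 13.2, 15.1 and 13.4 CPM, a log2 ratio of 0.08 ± 0.14.

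**Figure D5:**
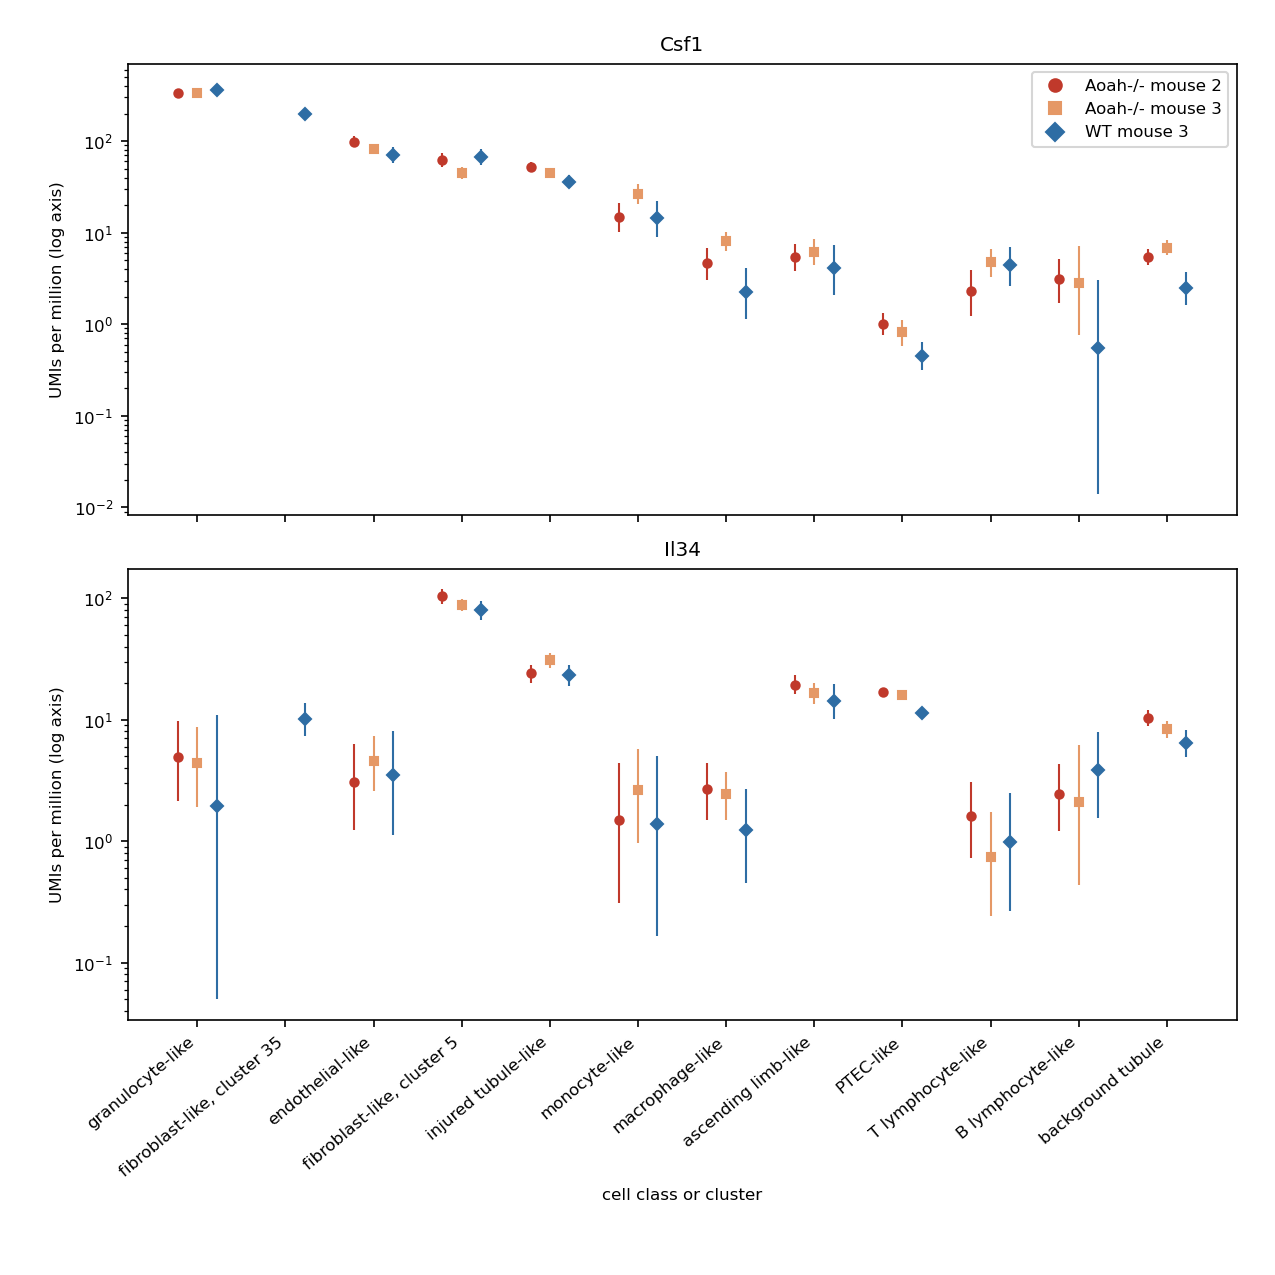
Levels of *Csf1* and *Il34* in CPM on a log axis in the cell classes and fibroblast clusters described, 1 point per library with its exact Poisson 95% interval, and no point where a library had fewer than 50 cells. *Csf1* is highest in granulocytes (335 to 361 CPM) and *Il34* in fibroblasts of cluster 5, and in PTECs the *Il34* points of both *Aoah-/-* mice lie above that of the WT mouse.

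*Il34*, the second ligand, had the largest mean share of its UMIs in PTECs. Its level in PTECs was 16.8 CPM (15.7 to 17.9) in *Aoah-/-* mouse 2, 16.0 CPM (14.9 to 17.2) in *Aoah-/-* mouse 3 and 11.3 CPM (10.5 to 12.1) in the WT mouse, and because PTECs are numerous they gave 57.8%, 43.8% and 67.0% of its UMIs. The intervals of both *Aoah-/-* libraries lay above that of WT, with a log2 ratio of 0.54 ± 0.05 and 0.53 to 0.71 over the alternatives, although neither *Aoah-/-* library passed 1.5-fold over WT. Background tubule cells were at 10.3, 8.33 and 6.39 CPM, a log2 ratio of 0.55 ± 0.22, and PTECs did not reach 2-fold over them in any library. Among the PTEC clusters, the *Slc7a13*-rich cluster 0 was at 20.8, 19.7 and 14.0 CPM and cluster 18 at 16.2, 13.9 and 11.8 CPM. The *Ttr*-led cluster 3 was at 17.4, 19.6 and 8.93 CPM, the *Slc5a2*-rich cluster 4 at 11.3, 9.32 and 4.22 CPM and cluster 11 at 10.0, 12.4 and 4.82 CPM. The log2 ratios of clusters 3, 4 and 11 were 1.05 ± 0.12, 1.28 ± 0.19 and 1.22 ± 0.21, and in all 5 clusters both *Aoah-/-* libraries exceeded WT. *Slc7a13* marks the last segment of the proximal tubule and *Slc5a2* the first. After thinning, 1.43% (1.15 to 1.75), 1.38% (1.07 to 1.75) and 1.09% (0.873 to 1.35) of PTECs held an *Il34* UMI, against 0.368%, 0.102% and 0.169% of T lymphocytes and 0.448%, 0.207% and 0.310% of B lymphocytes, which should lack it. Without thinning, the shares were 9.09%, 13.1% and 7.39% in PTECs at medians of 3054, 6433 and 4819 UMIs, and 0.444%, 0.256% and 0.319% in T lymphocytes at 2502, 3032 and 2930.5 UMIs.

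*Il34* was not particular to PTECs in level. Injured tubule cells were at 24.0, 30.99 and 23.1 CPM and ascending limb cells at 19.5, 16.5 and 14.3 CPM, and *Mgp*- and *Ccl2*-led fibroblasts, at 103, 88.2 and 79.8 CPM, were the highest of the named cells. In *Dcn*- and *Pi16*-led fibroblasts of the WT mouse it was at 10.2 CPM, so that the 2 kinds of fibroblasts were opposite in their CSF1 receptor ligands. In the first kind *Il34* exceeded *Csf1* in CPM in all 3 libraries, and in the second kind *Csf1* exceeded *Il34* in the WT mouse. The assay counts 3′ ends, so these levels need no correction for length, but capture can differ between genes. In macrophages *Il34* was past the fold higher, at 2.68, 2.42 and 1.24 CPM from 15, 21 and 6 UMIs, well below its level in PTECs. The macrophage mean of 2.11 CPM lay between those of B lymphocytes (2.80 CPM) and T lymphocytes (1.11 CPM), which should lack the gene. Over all kept cells *Il34* was at 12.4, 13.8 and 10.1 CPM, a log2 ratio of 0.38 ± 0.11, and at the mean class shares at 14.9, 14.3 and 9.35 CPM, where both *Aoah-/-* libraries exceeded WT.

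The receptors, antagonists and targets of these cytokines were described with a list of 38 genes. In all kept cells 13 of the 38 were past the fold higher and 0 lower, against 3.48% and 2.55% of all genes, with a median log2 ratio of 0.65 against 0.05 over all genes tested. Without the peritoneal-like cells 8 were higher and 0 lower, against 2.82% and 2.46%. Among those with the most UMIs were *Tnfaip3*, an inhibitor of NF-κB signalling that is itself induced by it (128, 106 and 60.2 CPM, log2 ratio 0.96 ± 0.19), and *Csf1r*, the receptor of CSF1 and IL-34 (69.4, 66.8 and 32.8 CPM, 1.05 ± 0.04). In each of these both *Aoah-/-* libraries lay above WT. Among kept cells the shares of granulocytes, T lymphocytes and monocytes were higher in both *Aoah-/-* libraries, and that of macrophages was lower. Peritoneal-like macrophages were 6.50%, 0.0660% and 0.423%. These are shares of cells, whereas a level over all kept cells weights each cell by its UMIs. Of the macrophages, the low-UMI cluster 27 held 875, 135 and 1129 cells and cluster 29 held 810, 1316 and 633. The part of composition in these differences was not tested. In macrophages 3 of 32 were higher and 0 lower, against 5.55% and 1.2% of all genes there, led by *Il1rn*, the IL-1 receptor antagonist (123, 108 and 69.7 CPM, 0.73 ± 0.13). In PTECs 6 of 35 were higher and 0 lower, against 2.72% and 0.825%, among them *Socs3*, a feedback inhibitor of IL-6 signalling (9.76, 8.42 and 2.83 CPM, 1.69 ± 0.15), and *Tnfaip3* (7.94, 7.07 and 3.36 CPM, 1.16 ± 0.12). Granulocyte markers summed to 21.4, 22.5 and 5.10 CPM and macrophage markers to 269.8, 269 and 152 CPM in PTECs, higher in the same libraries, and their part in these differences was not tested.

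In injured tubule cells 7 of 36 were higher and 2 lower, against 4.62% and 1.73% of all genes there. *Socs3* (294, 335 and 184 CPM, 0.77 ± 0.13) and *Csf3*, the gene of G-CSF (18.3, 5.37 and 3.14 CPM, 1.92 ± 1.25), were among those higher, and *Il1rl1*, the gene of the IL-33 receptor (6.94, 3.38 and 13.2 CPM, -1.36 ± 0.74), and *Csf2* (1.60, 1.07 and 6.51 CPM, -2.28 ± 0.41) were those lower. In endothelial cells 4 of 24 were higher and 0 lower, against 6.29% and 1.58%, led by *Casp4*, the receptor of intracellular lipopolysaccharide (25.0, 25.3 and 14.6 CPM, 0.78 ± 0.01). In granulocytes 0 of 29 were higher and 1 (*Il18bp*, 4.94, 9.36 and 15.7 CPM) lower, against 15.8% and 4.01%. In T lymphocytes 4 of 33 were higher, led by *Il10ra* (44.1, 41.3 and 23.7 CPM, 0.85 ± 0.07), and 2 lower, *Ifngr2* (14.8, 13.2 and 28.0 CPM, -1.005 ± 0.12) and *Il1r1*, against 3.56% and 1.79%.

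Across the 18 classes, the genes whose mean levels were most like those of a member were described by Pearson's r of log2(CPM + 1), with n = 18 classes that share libraries, so no p is given. The closest gene to *Il1b* was *Nlrp3* (r = 0.985), which encodes the inflammasome sensor, and the closest to *Tnf* was *Cxcl2* (0.935), a neutrophil chemokine. *Ms4a4b* was closest to *Ifng* (0.973), and *Tff1* to *Il17a* (0.985), followed by *Cd40lg* and *Cd163l1*. For the stromal genes these were *Pla2r1* for *Il33* (0.983), *Pofut2* for *Csf1* (0.898) and *Serpina10* for *Il34* (0.927). For *Il6* it was *Rem1* (0.908), for *Il10* *Hpgds* (0.827) and for *Il18* *Cyp2r1* (0.881). Among the 10 genes themselves, *Il1b* and *Tnf* were the most alike (r = 0.829), followed by *Tnf* and *Il10* (0.738). No other pair exceeded 0.7.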

How the data were processed

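Single-cell suspensions of 3 kidneys were profiled with a droplet assay that captures the 3′ ends of mRNA. Per the labels, Cell Ranger 3.1.0, STAR, Seurat 4.2.0 and mm10 were used by the submitters, whereas the header of the matrices names cellranger 6.1.2. The matrices that the authors deposited hold raw counts (UMIs) for 27998 genes in barcodes called as cells, and all values were whole numbers. The total count per library was 158551992 to 167222984 UMIs.

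Counts were read with Python 3.11.15. Barcodes were removed below 200 genes or above 50% mitochondrial UMIs (16.3%, 20.3% and 21.1% of them). Libraries were clustered together without correction in scanpy 1.11.5 (2000 variable genes without the 10 members, the 38 listed genes, MHC class II genes, *Cd74* and *Aoah*, 50 components, 15 neighbours, Leiden of igraph 0.11.9 at resolution 1). A cluster of at least 50 cells was named for the markers with the highest mean log2 fold (CPM + 10 over the median cluster, 5 best markers, mean of at least 2, and 3 markers at 2-fold) unless its 10 leading genes held more markers of another class. Clusters whose best class was not PTEC or injured tubule also stayed unnamed if their PTEC mean reached 0.5 of the best mean. This naming rule was set after the files were seen. Doublets were kept, since Scrublet called 544, 0 and 201 cells. Macrophage and monocyte cells were clustered again for subclusters.

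For each class the UMIs of a library were added up and expressed as CPM, and Poisson intervals (exact, 95%) were computed in scipy 1.17.1. Shares of cells came from cells thinned to 1000 UMIs, with Clopper-Pearson intervals. A library at 0 entered a ratio at its floor of 3 counts. Cells are not replicates, so no test was made. The fold rule and the Poisson intervals were tested on simulated Poisson counts with known folds. These hold no spread between mice or cells, so the test says nothing on such spread. All 10 members were named, with at most 3 listed pathway genes a direction, those with the most UMIs. Some values of listed genes are not reported here. The members and lists were chosen with earlier results of these data known. Alternatives were other filters, clusterings, totals and thinning depths, leaving out a library, and 2 sets added after the values were seen (without peritoneal-like cells, and further classes).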

Additional observations from a re-analysis of the deposited data

Results flagged for a closer look

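The difference between genotypes in *Il18* went opposite ways in the *Mgp*- and *Ccl2*-led fibroblasts and in granulocytes. In those fibroblasts both *Aoah-/-* libraries were above WT, with a log2 ratio of 1.04 from 12, 17 and 4 UMIs, and in granulocytes both were below WT, with a log2 ratio of -1.53 from 7, 7 and 6 UMIs. The gap between the ratios was 2.56 on the log2 scale. It rests on few UMIs and 1 WT library, and it was not tested.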

How the results depend on the processing

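The single WT library limits every comparison, since nothing shows how far WT mice vary, and the SD covers the 2 *Aoah-/-* mice only. No paired analysis was possible because the genotypes share only replicate number 3. A source class was set for each gene among classes with at least 50 cells in every library. It held the largest mean share of the gene's UMIs among those at or above the level over all kept cells in every library. No class met this for *Il6*, so fibroblasts, with the highest mean level among the compared classes, were taken. In the source classes the log2 ratio kept its direction in 97 of 101 alternatives, and over all kept cells in 71 of 80. For *Il6*, *Il33* and *Csf1* the source class was fibroblasts, whose cluster 35 held 10, 18 and 493 cells. In cluster 5 alone their ratios were -0.004, 0.28 and -0.32, against -1.98, -1.28 and -1.55 in the class. Genotype and the mix of the 2 clusters cannot be told apart in the class ratios. The cause of the changes below was not tested.

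For *Il1b* in macrophages the ratio (-0.21) was -0.40 with at most 20% mitochondrial UMIs, -0.48 with at least 500 genes, -0.51 with the same lowest UMI total in every library, -0.29 after the 10% of cells highest in Scrublet score were removed, -0.014 with each library clustered alone and 0.37 as a mean of per-cell levels. In the same order, *Tnf* in macrophages (-0.16) was at -0.32, -0.43, -0.46, -0.21, -0.085 and 0.51, and it was -0.18 at resolution 2, -0.15 with 30 components and -0.20 without mitochondrial genes in the total. *Il10* in macrophages (-0.52) was at -0.64 with at least 500 genes, -0.79 with the same lowest total, -0.43 with each library clustered alone and 0.10 as a mean of per-cell levels. *Il18* in macrophages (-0.19) was at -0.31 with at least 500 genes and with the same lowest total, and at -0.095 without high Scrublet scores. *Il34* in PTECs (0.54) was at 0.64 with at most 20% mitochondrial UMIs, 0.71 as a mean of per-cell levels and 0.59 without mitochondrial genes.

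In fibroblasts, whose 2 clusters were split between genotypes, *Il6* (-1.98) was at -2.49 with at least 500 genes, -2.48 with the same lowest total, -2.33 without high Scrublet scores, -1.21 at resolution 2 and -1.65 as a mean of per-cell levels, and *Il33* (-1.28) turned to 0.30 at resolution 2. With the 18 compared classes at their mean shares, and so without peritoneal-like and unnamed cells, the log2 ratios were 0.15 for *Il1b*, 0.17 for *Tnf* and 0.41 for *Il10*. For *Ifng*, *Csf1* and *Il34* they were -0.27, -0.29 and 0.65. The effect of the shares was not separated from that of leaving out these cells. Over all kept cells without peritoneal-like cells the ratios were 0.61 for *Il1b*, 0.49 for *Tnf*, 0.31 for *Il6*, 0.49 for *Il10* and 0.39 for *Ifng*. For *Il18* the ratio was -0.35, for *Il33* 0.007, for *Csf1* 0.08 and for *Il34* 0.41 without these cells. *Il17a* was at -1.225 both with and without them. Leaving out either *Aoah-/-* library gave -0.50 to 3.43 for *Il6* over all kept cells, -4.06 to -1.07 for *Il17a* in T lymphocytes and -3.66 to -0.37 for *Il17a* over all kept cells. Of all genes, 57 were past 2-fold higher and 182 lower over all kept cells (608 and 445 at 1.5-fold). In macrophages these counts were 110 and 47 at 2-fold, and 333 and 71 with at least 100 UMIs (674 and 146 as reported).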
